A study of Homo sapiens with 6 samples.

Results

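The regions described here are late DNA double-strand break (DSB) clusters of camptothecin-treated cells that lie away from the starts of protein-coding genes, called late distal clusters below. They were chosen from the peak lists of 4 treated END-seq libraries. In each library a DSB site ran from the start of a reverse-strand peak to the end of the closest forward-strand peak that overlapped it or began under 150 bp downstream, and overlapping sites were merged. A site was replicated if it overlapped a site of the other replicate of the same time, and a replicated site of the 20 min treatment was late if it overlapped no replicated site of the 10 min treatment. Of 4011 replicated sites at 10 min and 2924 at 20 min, 1899 were late. Chromosomes 1 to 22 held 1862 of them, and 1822 lay at least 1 Mb from assembly gaps of 1 Mb or more. The distance rule, which keeps midpoints over 5 kb from every protein-coding 5′ end, removed 800 of these, and 1022 late distal clusters remained. The peak positions at both times and the distance from gene starts thus chose the clusters, and the absence at 10 min, the presence at 20 min and the distance are not results. The 3 clusters just inside the distance threshold lay 5013, 5017 and 5018 bp from a 5′ end, and the 3 just outside lay 4961, 4964 and 4964 bp away.

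END-seq was carried out in HCT116, an established human colorectal carcinoma line with no further genetic change named, and murine pre-B cells were added as a spike-in. Cells received 10 µM camptothecin (CPT) for 10 min (CPT10) or 20 min (CPT20) or were left untreated (Ctrl), with 2 biological replicates of each. Titles of the samples carry the numbers 10 and 20 as doses in µM, but the protocol and design text describe a single dose given for either time, which is the reading used here. Ctrl served as input for the authors' peak calling, and a background of peaks from untreated cells was not analysed here.

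DNA topoisomerase I relaxes supercoils by cutting and resealing 1 strand of DNA, mostly ahead of and behind moving RNA and DNA polymerases. CPT traps the enzyme on the cut strand, and a trapped complex can become a DSB when a replication fork meets it or when breaks on both strands come close together. END-seq ligates an adapter to each free DNA end in agarose-embedded cells, so that a break whose ends are both captured gives reverse-strand reads to its left and forward-strand reads to its right.

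The name of the set was checked against the peaks themselves. A site was present in neither CPT10 library at 599 of the 1022 clusters (58.6%), in CPT10 replicate 1 alone at 253, in CPT10 replicate 2 alone at 128, and in both without mutual overlap at 42. Strand-specific peaks were more common than paired sites, and 104 clusters (10.2%) had no peak in any of the 4 CPT10 lists while 123 had a peak in all 4. The deposited fold is the peak height over the expected height of its list with 1 added to both, so it scales for depth only in part. Highest peaks of CPT10 and CPT20 libraries of the same replicate number were compared by this fold. On at least 1 strand, the CPT10 peak had the larger fold at 492 clusters (48.1%) in replicate 1 and 321 (31.4%) in replicate 2. The unscaled heights gave 517 (50.6%) and 250 (24.5%), where CPT10 was the deeper library in replicate 1 and the shallower in replicate 2. Late therefore means that no replicated pair of peaks was found at 10 min, not that breaks were absent at 10 min or rose by 20 min. The distance from gene starts was also narrower than its wording. A start of another transcript of a protein-coding gene lay within 5 kb of 351 clusters (34.3%), against 10.6% of genome windows, and a noncoding gene began within 5 kb of 240 (23.5%), whereas 88.0% of windows were over 5 kb from any noncoding start. Genome windows are 1 window of 500 bp every 5 kb, placed under the same chromosome, gap and distance rules as the clusters, and there were 496104. The remaining 528 clusters (51.7%) were over 5 kb from every annotated gene start and transcript start, as were 78.9% of genome windows.

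The sequences below are stretches that the peaks of both strands and both CPT20 replicates had in common, and they do not give the position of a break. At 332 clusters (32.5%) such a stretch existed, with a median length of 78 bp and a range from 1 to 695 bp. Capitals mark this stretch, shortened to 200 bases where it was longer, with flanks of 20 bases, and all are plus-strand GRCh37 (hg19) reference sequence written 5′ to 3′. The first 2 belong to high-ranked clusters, namely an intron of ENSG00000285635 at chr3:98275804-98276031 and an intron of ICMT at chr1:6286955-6287087. The others are introns of genes with several clusters, at chr6:159127667-159127906 in SYTL3 and chr1:145024163-145024402 in PDE4DIP.
ENSG00000285635: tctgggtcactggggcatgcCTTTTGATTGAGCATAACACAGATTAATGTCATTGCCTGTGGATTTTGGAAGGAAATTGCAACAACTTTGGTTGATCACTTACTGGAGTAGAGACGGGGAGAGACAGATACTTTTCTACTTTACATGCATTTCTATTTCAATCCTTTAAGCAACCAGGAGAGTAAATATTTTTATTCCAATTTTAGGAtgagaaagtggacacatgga
ICMT: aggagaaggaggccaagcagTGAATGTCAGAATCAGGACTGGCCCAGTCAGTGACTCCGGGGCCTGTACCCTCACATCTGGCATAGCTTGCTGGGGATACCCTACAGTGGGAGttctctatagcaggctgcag
SYTL3: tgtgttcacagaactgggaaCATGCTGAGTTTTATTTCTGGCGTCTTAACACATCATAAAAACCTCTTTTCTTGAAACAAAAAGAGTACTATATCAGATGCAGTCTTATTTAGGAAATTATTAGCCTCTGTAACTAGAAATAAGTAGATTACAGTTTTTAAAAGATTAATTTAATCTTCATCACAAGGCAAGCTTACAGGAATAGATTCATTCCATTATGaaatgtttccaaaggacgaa
PDE4DIP: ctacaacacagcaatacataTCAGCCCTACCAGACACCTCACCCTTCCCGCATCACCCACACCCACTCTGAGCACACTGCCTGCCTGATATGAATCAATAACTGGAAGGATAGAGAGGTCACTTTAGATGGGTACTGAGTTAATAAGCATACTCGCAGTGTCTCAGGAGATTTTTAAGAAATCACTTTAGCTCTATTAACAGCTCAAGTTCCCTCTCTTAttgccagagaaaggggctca
GC content of the capitals was 35.1% in ENSG00000285635, 57.0% in ICMT, 30% in SYTL3 and 45.5% in PDE4DIP. The 4 stretches did not share a base composition, and of the sequence patterns counted over all clusters further below, only the PDE4DIP sequence as printed held 1, the pattern of 4 runs of G or C.

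Peak lists of the 4 libraries held between 286491 and 826744 peaks per strand, and CPT20 replicate 2 had the shortest. The expected summit height behind the authors' fold values, a relative measure of depth, ranged from 0.727 to 1.44 fragments. CPT20 replicate 1 had 85813 sites and CPT20 replicate 2 had 18831, so that the second library limited which sites could be replicated. Peak density was raised, at over 1.5 times the median of 1479 peaks per 1 Mb window, in 158 windows, and 146 of these lay on chromosomes 8, 10, 16 and 17. These windows held 367 late distal clusters (35.9%), against 5.88% of genome windows. They were defined from the same peak lists, so an excess over genome windows is built in, and other sets are given further below. The shares in genes and downstream of 5′ ends are also given without these windows, and their part in the other results and copy number were not tested.

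Late distal clusters were wider than most sites and of moderate height. The rule favours both traits, since a replicated site merges overlapping sites of 2 libraries and its highest peak is taken over the merged width. Width, height and fold are thus given as a description of the set and not as results. Their median width was 748.5 bp (range 35 to 4451 bp). The median height of the highest reverse and forward peak was 12 and 13 fragments in CPT20 replicate 1 and 9 and 9 in replicate 2, with highest values of 81, 56, 43 and 39. The median deposited fold was 5.91 and 6.27 in replicate 1 and 5.38 and 5.36 in replicate 2. Beside them were set, under the same chromosome, gap and distance rules, 2191 transient distal clusters (replicated at 10 min only), 313 persistent distal clusters (replicated at both times) and 82036 distal sites found in only 1 CPT20 replicate. The median folds in CPT20 replicate 1 were 10.5 and 11.2 for persistent clusters and 4.55 and 4.48 for unreplicated sites, and the medians of late clusters lay between them. Heights in the 2 CPT20 replicates followed each other loosely over the 1022 clusters (Spearman's rho 0.327 for reverse and 0.341 for forward peaks, a description across clusters that share libraries).

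The 12 highest-ranked late distal clusters were taken by the worse of their ranks in the 2 CPT20 libraries. The highest-ranked, chr9:139620694-139622844, was 0.867 kb inside SNHG7, a noncoding host of small nucleolar RNAs. Its reverse and forward heights were 36 and 27 fragments in CPT20 replicate 1, 27 and 17 in CPT20 replicate 2, 25 and 14 in CPT10 replicate 1 and 11 and 5 in CPT10 replicate 2. Both CPT20 libraries were thus above both CPT10 libraries on each strand here. The second, chr9:19374422-19374887, lay between the convergent 3′ ends of DENND4C and RPS6, which encodes a protein of the small ribosomal subunit, and 5.58 kb downstream of the RPS6 5′ end. Its heights were 25 and 26 in CPT20 replicate 1 and 16 and 16 in replicate 2, and 30 and 45 in CPT10 replicate 1, where both strands were higher than at 20 min. In CPT10 replicate 2 it had a reverse peak of 6 and no forward peak, which is why it was not replicated at 10 min.

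The cluster with the clearest difference between the times was in ICMT, which encodes the methyltransferase that modifies the C terminus of prenylated proteins such as RAS. It spanned chr1:6286960-6288388, 8.36 kb downstream of the 5′ end, with heights of 22 and 26 in CPT20 replicate 1 and 14 and 17 in replicate 2. No CPT10 list had a peak there, the only such case among the 12. The cluster in ATF3, a stress-induced transcription factor, spanned chr1:212786987-212787571 and had heights of 24 and 29 in CPT20 replicate 1 and 16 and 14 in replicate 2. In CPT10 it had 1 forward peak of 31 in replicate 1 and no other peak, so that a break end on 1 strand was as high at 10 min as at 20 min. The cluster lay 48.6 kb from the annotated 5′ end of ATF3 but 0.501 kb from the start of another of its transcripts.

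Several other high-ranked clusters were likewise close to inner transcript starts. In PTBP1, a regulator of splicing that binds pyrimidine-rich RNA, the cluster chr19:804624-806644 was 8.56 kb downstream of the 5′ end and 0.126 kb from another start. Its heights were 30 and 28 in CPT20 replicate 1, 16 and 15 in replicate 2, 14 and 16 in CPT10 replicate 1 and 8 and 6 in CPT10 replicate 2, so that within each replicate number CPT20 was the higher on both strands. In RPL3, a large-subunit ribosomal protein gene, the cluster chr22:39708989-39712906 covered 3918 bp of a gene of 7.51 kb, 5.45 kb from the 5′ end and 0.022 kb from another start. The RPL3 reverse peak was higher at 10 min (40 and 17 in CPT10 replicates 1 and 2) than at 20 min (31 and 16), whereas the forward peak was lower (16 and 10 against 22 and 28). In IMP3, which encodes a protein of the U3 small nucleolar ribonucleoprotein, the cluster was 9.03 kb from the annotated 5′ end and 0.547 kb from another start, with heights of 23 and 25 in CPT20 replicate 1 and 14 and 15 in replicate 2. In NR4A1, an immediate-early nuclear receptor gene, it was 16.2 kb from the 5′ end and 1.30 kb from another start, with heights of 23 and 23 and of 17 and 18. Both genes had peaks in all 4 CPT10 lists, at 18, 13, 6 and 4 fragments in IMP3 and 14, 22, 13 and 7 in NR4A1, all below the CPT20 heights of the same replicate number and strand.

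The other 4 were in the noncoding genes GP6-AS1, ENSG00000287387 and LINC01970 and in ENSG00000285635, a protein-coding gene model that overlaps the 3′ part of CPOX. The ENSG00000287387 cluster was 5.02 kb downstream of the 5′ end of ZFP36L2, which encodes a protein that promotes decay of AU-rich mRNAs, and so narrowly passed the distance rule. Of the 12, 7 lay within 5 kb of an inner transcript start and 9 within 5 kb of a noncoding gene start, 11 had either, and 1, in ENSG00000285635, had neither. This share of 91.7% compares with 48.3% of all 1022, so the highest clusters were not typical in their distance from starts. On at least 1 strand the deposited fold was larger at 10 than at 20 min in 3 of the 12 in replicate 1 and in 4 in replicate 2. The unscaled height was larger in 6 and 3.

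**Figure D1:**
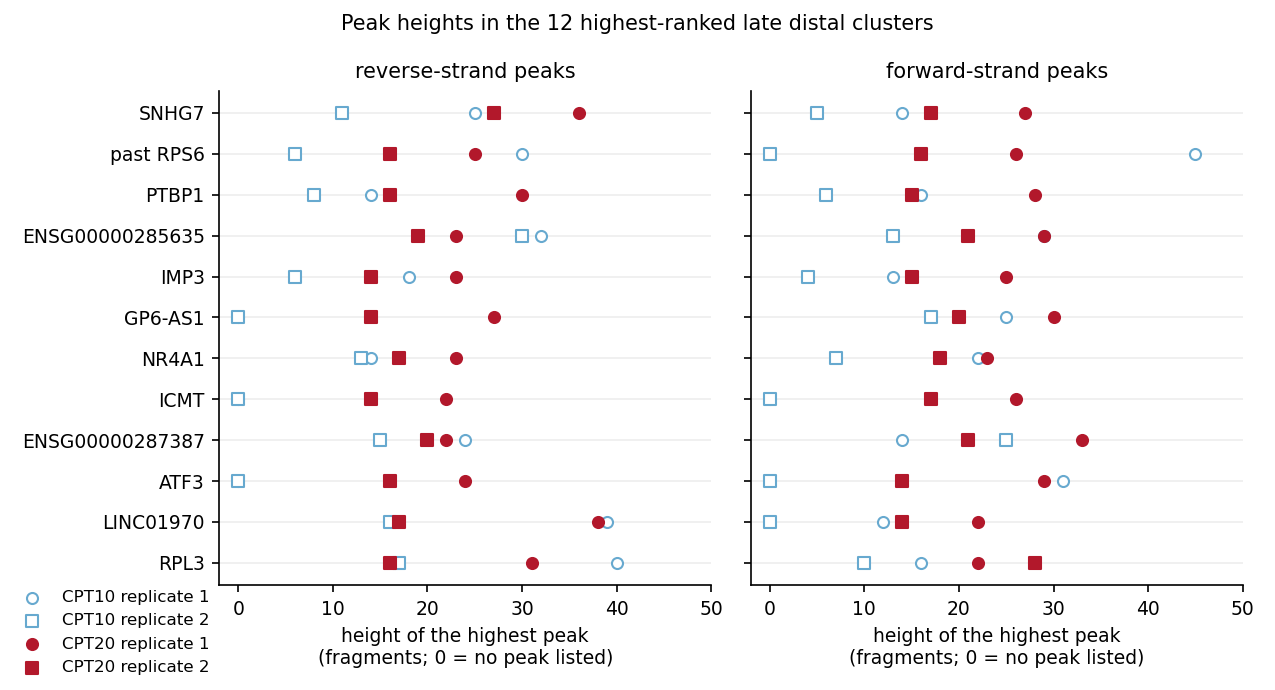
Height in fragments of the highest reverse-strand peak (left) and forward-strand peak (right) in the 12 highest-ranked late distal clusters, with 1 point per library (open, CPT10; filled, CPT20; circles, replicate 1; squares, replicate 2) and 0 for no listed peak, where a square can hide a circle. ICMT has no CPT10 peak on either strand, whereas CPT10 replicate 1 reaches 45 past RPS6, above both CPT20 replicates.

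Late distal clusters lay mostly in genes. Their midpoints were in a gene body in 809 cases (79.2%, 95% Wilson interval 76.6 to 81.5), against 63.0% of genome windows, and in a protein-coding gene in 662 (64.8%), against 46.0%. Of the unreplicated CPT20 sites 69.0% were genic, which was lower (two-sided Fisher's exact test, adjusted p = 2.30e-12 over the 7 tests of location, GC content and strand), and the same held for transient distal clusters at 70.8% (adjusted p = 1.16e-06). Persistent distal clusters were genic in 83.7%, with an interval from 79.2 to 87.4, and the difference from late clusters did not pass the test (Fisher's exact test, p = 0.0883, adjusted p = 0.124). With libraries paired by replicate number, where the 637 clusters kept had no CPT10 site of the same number under their CPT20 sites, the late share was 77.2% and the difference had an unadjusted p of 0.0213 (Fisher's exact test). Intervals and tests over clusters cover counting error only, since neighbouring clusters are not independent, amplified duplicate reads were kept and each time has 2 libraries. Outside the windows of raised density, 78.9% of late clusters and 68.6% of unreplicated sites were genic.

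Introns of protein-coding genes held 530 midpoints (51.9%), against 48.9% of unreplicated sites and 42.7% of genome windows, and introns of noncoding genes held 125 (12.2%), against 13.2% and 15.8%. Intron shares were thus near those of unreplicated sites. Untranslated parts held 63 midpoints (6.16%) and coding sequence 38 (3.72%), and 213 (20.8%) were intergenic. Coding sequence and untranslated parts held 2.02% and 2.44% of unreplicated sites and 1.06% and 1.5% of genome windows, so that exonic shares were higher in late clusters on these counts, without a test. Within 5 kb past a protein-coding 3′ end lay 44 clusters (4.31%), so few clusters had a position like that of the RPS6 cluster. The share was nevertheless above the 2.81% of unreplicated sites, 2.69% of transient distal clusters and 1.90% of genome windows, without a test. In persistent distal clusters it was 4.47%.

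Clusters were concentrated downstream of the excluded zone around gene starts. In 368 of them (36.0%, interval 33.1 to 39.0) the midpoint lay 5 to 20 kb downstream of a protein-coding 5′ end, not always the nearest. Of unreplicated sites 17.1% did so (Fisher's exact test, adjusted p = 5.07e-46), and of genome windows 9.23%. The share was 18.8% in transient and 37.4% in persistent distal clusters. For the 671 late clusters over 5 kb from every transcript start of protein-coding genes, a setting chosen after seeing the data, it was lower at 22.95%, against 11.9% of unreplicated sites under the same rule (Fisher's exact test, unadjusted p = 1.81e-15). Upstream of 5′ ends at the same distance lay 18.8% of late clusters, 13.0% of unreplicated sites and 8.72% of genome windows, so that the contrast was larger on the transcribed side. The excess was steepest next to the threshold. Counted by the nearest 5′ end alone, the share at 5 to 10 kb downstream was 17.2% against 6.43% of unreplicated sites, a ratio of 2.68. This ratio was 1.75 at 10 to 15 kb, 1.23 at 15 to 20 kb, 1.01 at 20 to 30 kb and 0.571 beyond 100 kb. The median distance to the nearest protein-coding 5′ end was 27.1 kb, against 58.7 kb for unreplicated sites and 95.7 kb for genome windows. Outside the raised-density windows the 5 to 20 kb shares were 38.2% and 17.1%.

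**Figure D2:**
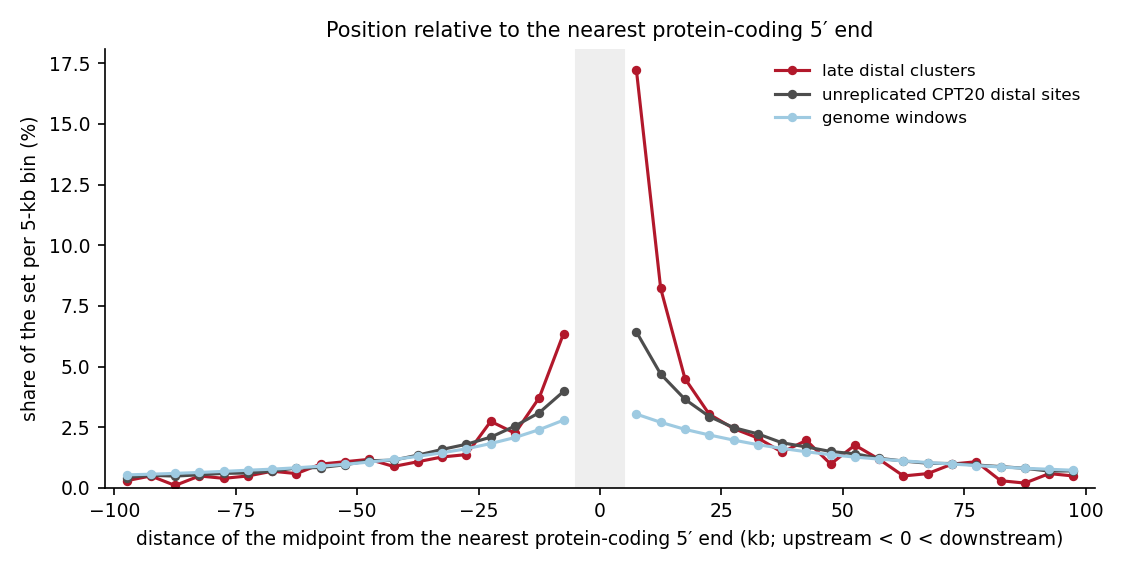
Share of each set (%) per 5 kb bin of signed distance (kb) from the nearest protein-coding 5′ end, for late distal clusters, unreplicated CPT20 distal sites and genome windows, with the excluded 5 kb on each side shaded. Late clusters reach 17.2% in the first downstream bin and are near unreplicated sites from 20 kb on.

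**Figure D3:**
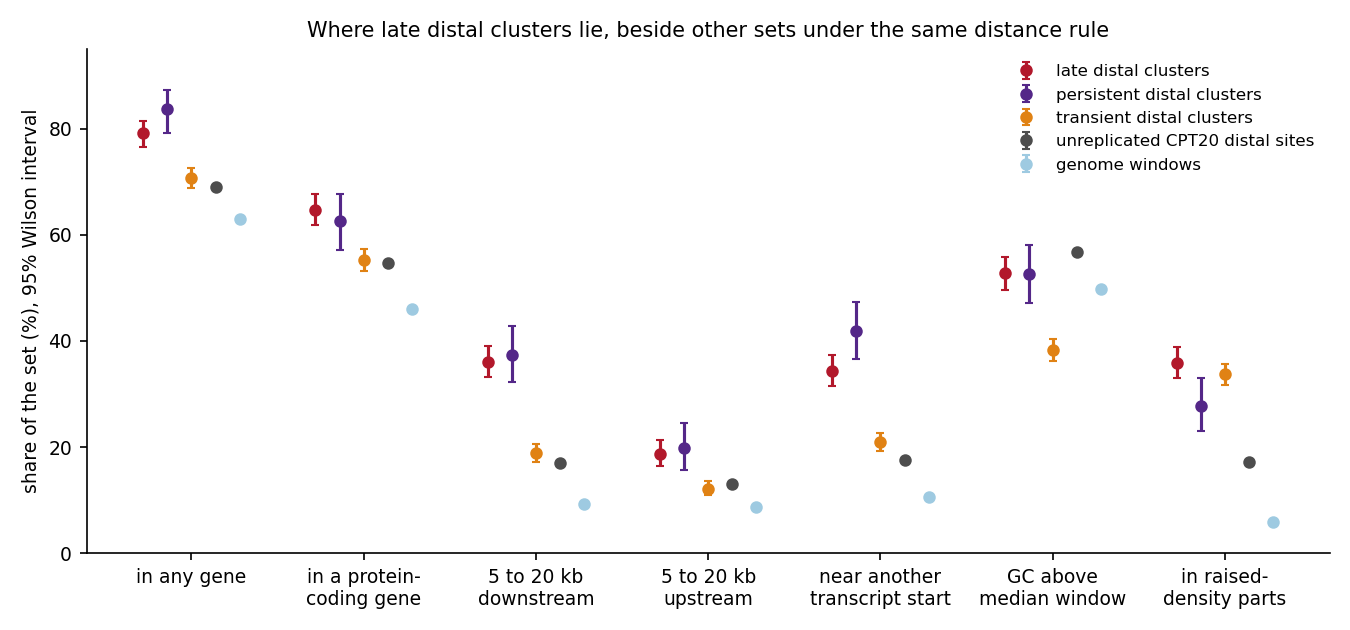
Shares (%) of 5 sets under the same chromosome, gap and distance rules, with 95% Wilson intervals, for 7 measures of location and base composition. Late and persistent clusters lie side by side in most measures, at 36.0% and 37.4% for 5 to 20 kb downstream, while transient clusters lie lower at 18.8%.

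Peak strength moved with both shares and was compared within bins of the smaller −log10 q of the best peak pair. In CPT20 replicate 1 the downstream share of late clusters was 24.0%, 33.6%, 40.5% and 51.5% at −log10 q under 3, 3 to 5, 5 to 10 and from 10 on, and that of unreplicated sites of this library was 14.7%, 19.0%, 23.6% and 38.7%. In replicate 2 the shares were 33.0%, 36.5%, 38.6% and 43.8% against 11.9%, 14.1%, 18.2% and 15%. Late clusters were thus higher in each of the 8 bins, and the last bin of replicate 2 held only 32 late clusters and 40 unreplicated sites. The genic shares were also higher in every bin, with 75% against 67.6% in the weakest and 87.7% against 80.9% in the strongest bin of replicate 1. When only peaks with −log10 q of at least 10 were kept before sites were built, 48 clusters remained, the genic share of 81.3% was no longer above that of unreplicated sites (81.8%, Fisher's exact test p = 0.851), and the downstream shares of 52.1% and 39.6% no longer passed the test (p = 0.0997).

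**Figure D4:**
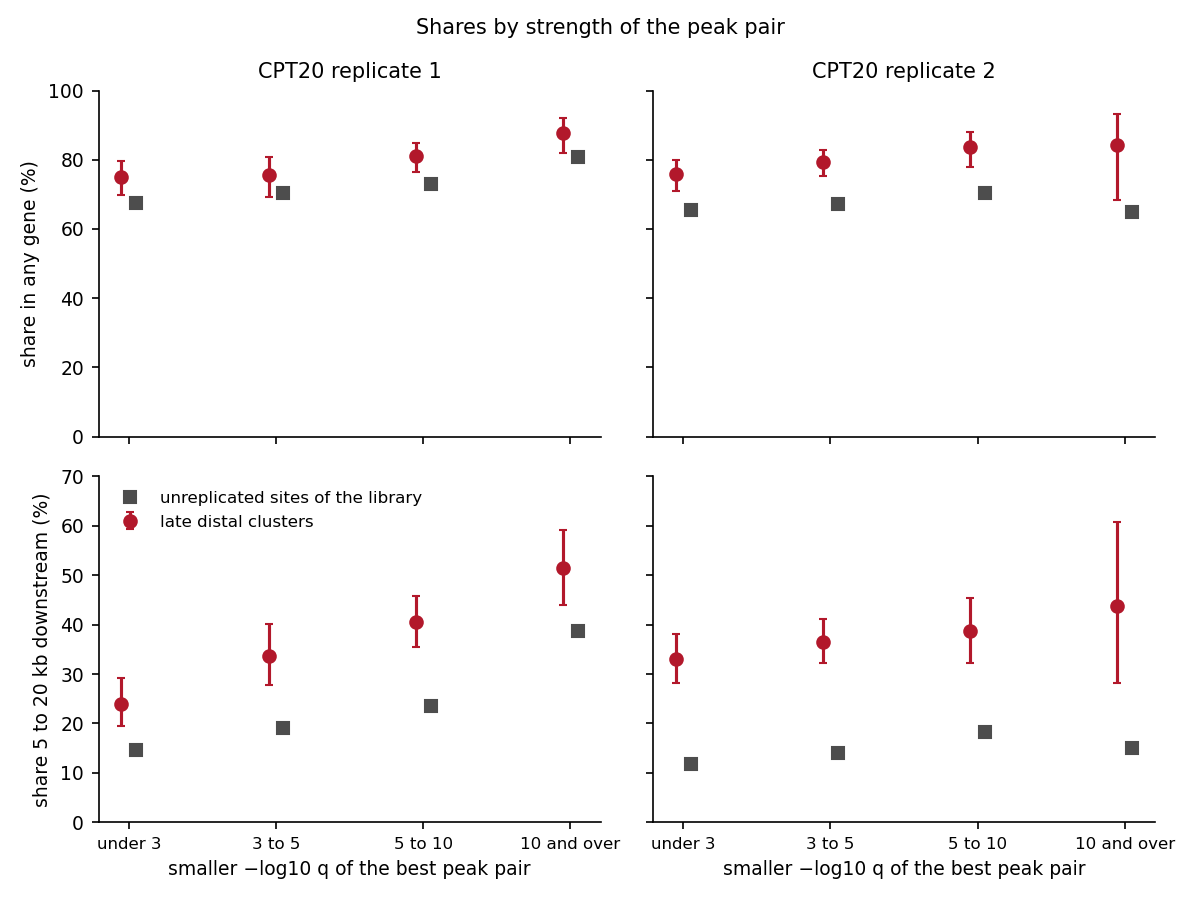
Share in any gene (top, %) and 5 to 20 kb downstream of a protein-coding 5′ end (bottom, %) by the smaller −log10 q of the best peak pair, for CPT20 replicate 1 (left) and 2 (right), with 95% Wilson intervals for late distal clusters. Late clusters (circles) lie above unreplicated sites (squares) in every bin, by 51.5% against 38.7% in the strongest downstream bin of replicate 1.

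Of 19229 protein-coding genes, 584 (3.04%) held a late distal cluster, and 492 of these held 1, 68 held 2 and 24 held 3 to 6. The median length of these host genes was 60.7 kb, against 27.6 kb for all genes and 35.5 kb for the 16565 genes over 5 kb long. The distance rule leaves genes under 5 kb no room for a cluster, and a longer gene offers more, so that length is not a finding. The share of genes with a cluster was 1.87% at 5 to 20 kb and 8.71% above 500 kb. A replicated site of either time lay within 5 kb of the 5′ end in 213 hosts (36.5%), against 9.70% of all protein-coding genes, so that many hosts also carried breaks at their starts.

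The 8 genes with most clusters were PDE4DIP, TCF7L2 and NSMCE2 with 6 each, KPNB1, HMGA2 and PCDH7 with 5 each, and SYTL3 and PHLDB2 with 4 each. TCF7L2, the transcription factor through which beta-catenin acts in Wnt signalling, had its 6 clusters in introns, the first 15.1 kb and the last 144.6 kb into the gene, and persistent and late clusters at its start. The lowest and highest of their CPT20 heights were 6 and 18 fragments. KPNB1, which encodes the nuclear import receptor importin beta, had 5 clusters between 8.69 and 35.0 kb in a gene of 36.0 kb, the last of them in an untranslated part. Clusters thus ran through nearly the whole of this gene, and its start held a persistent cluster. HMGA2, an architectural chromatin protein gene, had 5 clusters from 28.9 to 129.0 kb, and its peaks reached 26 fragments.

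SYTL3, which encodes a synaptotagmin-like protein of vesicle traffic, was the only one of the 8 whose body held no cluster of another class. Its 4 clusters lay 57.0, 79.4, 88.7 and 114.6 kb from the 5′ end, and their heights ranged from 8 to 41 fragments, the highest among these genes. Each had peaks in 3 or 4 CPT10 lists and a site in a CPT10 library, so that its clusters were replicated at 20 min only without being free of peaks at 10 min. PCDH7, a protocadherin gene, and PHLDB2, which encodes a protein of the cell cortex, held theirs in introns up to 369.8 and 196.6 kb from the 5′ end. NSMCE2 encodes a SUMO ligase of the SMC5/6 complex and held 6 intronic clusters, 4 of them without a site in either CPT10 library. PDE4DIP lies in a duplicated part of chromosome 1 with near-identical copies, so reads may belong to a copy and its 6 clusters are uncertain. The midpoints of TCF7L2, NSMCE2, KPNB1 and HMGA2 lay in windows of raised peak density, and the part of density in their counts was not tested.

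**Figure D5:**
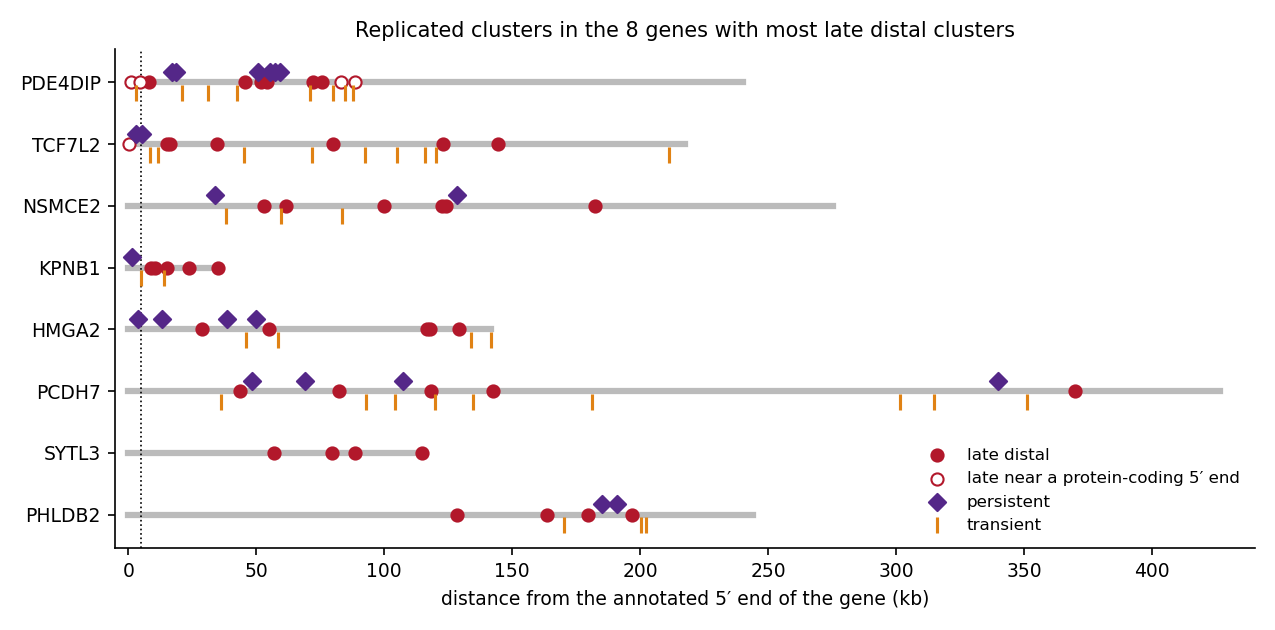
Position of replicated clusters in kb from the annotated 5′ end of the 8 genes with most late distal clusters, where grey bars are gene bodies and the dotted line is the 5 kb threshold. Late distal clusters (filled circles) alternate with persistent (diamonds) and transient (ticks) clusters in 7 genes, and SYTL3 holds 4 late distal clusters alone.

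Gene lists relevant to this line and drug were read against the background of 3.04% of protein-coding genes, without a test. Of 34 translation factor genes 7 (20.6%) held a cluster, with 2 in EIF3A, a subunit of the initiation factor that binds the small ribosomal subunit, and 1 each in EIF5, EIF3H and EIF3L. Of 30 SR protein and hnRNP genes 6 (20.0%) did, with 3 in HNRNPU and 2 in HNRNPF, which package and process nuclear RNA, and 1 each in HNRNPAB and HNRNPR. Of 18 actin, tubulin and keratin genes 4 did, namely ACTN4, an actin crosslinker, with 2 and TUBB6, TUBB3 and KRT8 with 1 each. These 3 lists lay above the background although their median lengths, from 15.9 to 21.9 kb, were shorter than that of all genes. The lists of the EGFR pathway, of TOP1 and break repair and of the Wnt pathway were above it too. Their shares were 13.9%, 9.4% and 7.3%. Among 36 genes of the EGFR pathway 5 did, with 2 clusters in EREG, a ligand of the receptor, and 1 each in DUSP5, AKT1 and SPRY4. Among 41 Wnt pathway genes 3 did, with 6 clusters in TCF7L2, 2 in RNF43, a ubiquitin ligase that removes Wnt receptors, and 1 in the coreceptor LRP6. Of 15 small nucleolar RNA host genes, mostly noncoding, SNHG7 and SNHG15 held 1 each (13.3%). This share cannot be read against the background of protein-coding genes. The distance rule does not exclude the starts of noncoding genes, and the SNHG7 cluster was 0.867 kb from the SNHG7 5′ end. Of 32 genes of TOP1 and break repair 3 did, namely TOP2A, XRCC6, which encodes a subunit of the end-binding Ku complex, and TOP1MT, the mitochondrial topoisomerase. None of 20 common fragile site genes held a cluster, which allows a share of up to 15%, although their median length was 1376 kb. Of the genes named from these lists, TCF7L2, RNF43, ACTN4, TUBB3, DUSP5, TOP1MT, EIF3A, EIF3H and EIF3L had their midpoint in windows of raised peak density.

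The distribution over chromosomes was uneven. Chromosome 8 held 164 clusters (16.0%) and 5.43% of genome windows, chromosome 17 held 131 (12.8%) and 2.66% of windows, and chromosome 10 held 81 (7.93%) and 4.95%. At the other end, chromosome 18 held 8 clusters (0.783%) and 2.83% of windows. Of the unreplicated sites 9.69% were on chromosome 8, 6.31% on each of chromosomes 17 and 10 and 2.12% on chromosome 18. Windows of raised density held 35.9% of late, 33.7% of transient and 27.8% of persistent distal clusters and 17.1% of unreplicated sites. Of the clusters on chromosomes 8, 10, 16 and 17, 143, 55, 19 and 111 lay in windows of raised density. Most clusters of chromosomes 8, 10 and 17 were thus in such windows, but not most of the 42 on chromosome 16.

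Base composition gave no stable contrast. In the 500 bp around the midpoint, 539 clusters (52.7%) had GC content above the genome median, against 56.9% of unreplicated sites (Fisher's exact test, adjusted p = 0.0146). The unreplicated sites of the 2 libraries were far apart, at 61.3% in replicate 1 and 33.8% in replicate 2, and late clusters lay between them, so the direction depended on the library. Median GC content was 40.6% in late, 40.4% in persistent and 37.4% in transient clusters. In the same window 6 sequence patterns were searched on both strands. A run of at least 12 A or T of 1 kind was present in 7.34% of late clusters, 8.91% of unreplicated sites and 10.8% of genome windows, at least 6 TA units in a row in 1.08%, 1.19% and 1.25%, and at least 10 CA or TG units in a row in 0.294%, 0.789% and 1.24%. A pattern of 4 runs of at least 3 G or C, 1 to 7 bases apart, was present in 5.68%, 5.21% and 4.69%, a purine or pyrimidine run of at least 30 bases in 1.08%, 2.18% and 2.99%, and at least 3 CG per 100 bases in 6.75%, 6.11% and 3.57%. None of the 6 passed against unreplicated sites after adjustment (Fisher's exact test, 1 with p under 0.05), and the smallest adjusted p was 0.0747, for the purine or pyrimidine run.

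The strand of the peaks was also examined. Where the gene strand was unambiguous, the reverse and forward peaks were compared by deposited fold. The peak with the larger fold was on the strand of the gene in 299 of 636 late clusters (47.0%, interval 43.2 to 50.9) in CPT20 replicate 1. In replicate 2 it was so in 320 of 636 (50.3%, interval 46.4 to 54.2). Peaks of equal height were not left out and counted as a larger reverse fold. The expected heights of the reverse and forward lists differed slightly (1.20 and 1.23 fragments in replicate 1, 0.858 and 0.864 in replicate 2). Neither share passed the two-sided exact binomial test against 50% (adjusted p = 0.166 and 0.905). The forward summit lay to the right of the reverse summit, the order left by a break with both ends captured, in 52.1% of overlapping peak pairs in replicate 1 and 54.8% in replicate 2, against 46.0% and 47.4% in unreplicated sites. These shares are given without a test, because order went with both site width and replication in both replicates. Sites of this order were wider, with medians of 382 bp against 138 bp in replicate 1 and 362.5 bp against 125 bp in replicate 2. They also overlapped the other replicate more often, at 3.59% against 2.38% in replicate 1 and 18.8% against 12.5% in replicate 2. The part of width in the shares was not tested.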

How the data were processed

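END-seq libraries of HCT116 cells were trimmed with Trim Galore and aligned to hg19 with Bowtie2 by the authors, who required proper pairing and a mapping quality of 30 or more, left duplicates in, and split them by the orientation of the first read. They called peaks with MACS2 per library and strand against the control as input, with no local background and a q-value threshold of 0.05. Of the deposited values, the score per peak was not used further. The fold, a ratio of summit height to expected height deposited by the authors with a constant added to both, gave whole-number summit heights. It also gave the constant expected height of each list. The deposited −log10 p-value and −log10 q-value ranked and filtered peaks, and the summit offset gave summit order. Read depth is unknown beyond the expected heights. The authors' removal of blacklisted regions and their test of enrichment over control were not repeated, so the classes rest on peak lists alone.

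Sites, classes and distances were computed with Python 3.11.15, NumPy 2.4.6, pandas 2.3.3, SciPy 1.17.1, statsmodels 0.14.6, matplotlib 3.10.9 and bedtools 2.31.1 on GRCh37 with GENCODE release 44 mapped to it. Shares were compared by two-sided Fisher's exact or exact binomial tests over clusters with Benjamini-Hochberg adjustment, and the scripts were tested on simulated data. A planned test of summit order was replaced by a description. The clusters named are the 12 with the best worst rank, where rank within a CPT20 library followed the weaker −log10 q of the peak pair, with at most 1 per gene or 100 kb, followed by the 8 protein-coding genes with most clusters and up to 4 genes per list. A cluster was assigned to the gene whose body held its midpoint. Members, lists and rules were chosen with earlier results of these data known. Alternatives changed the peak threshold, overlap, pairing distance, distance rules, list length, libraries and windows.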

Additional observations from a re-analysis of the deposited data

How the results depend on the processing

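Over 21 alternative settings, 4 of them chosen after seeing the data, 88 of 119 recomputed shares with a test kept their direction and their side of an unadjusted p of 0.05, which is the criterion for passing here. The number of clusters was 581 and 48 with −log10 q of at least 3 and 10, 599 with no site of either CPT10 library, 611 with lists of equal length, 655 outside raised-density windows and 671 away from every transcript start of protein-coding genes (chosen later). It ranged from 740 to 69858 when 1 library was left out, with 875 and 740 without CPT10 replicates 1 and 2, and 14325 and 69858 without CPT20 replicates 1 and 2, where replication could not be required.

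The paper lists 2 experiments, and libraries of the same replicate number were taken as 1 experiment, which the sample labels do not state. With this replicate block, where a cluster's CPT20 sites overlap no CPT10 site of the same number, 637 clusters remained and their genic share of 77.2% was below that of persistent clusters past the threshold. That difference also passed with 50% overlap (79.4%), over 10 kb from 5′ ends (75.3%) and with no site of either CPT10 library (77.0%), ranged from 67.4% to 79.2% with 1 library left out (passing without CPT10 replicate 2 and without either CPT20 replicate), and reversed without the distance from gaps (78.2% against 66.98%) and at −log10 q of at least 10 (81.3% against 78.6%). At that threshold the genic share of 81.3% was below unreplicated sites (81.8%) and no longer passed against transient clusters (77.8%), and the downstream share of 52.1% no longer passed. Against transient clusters the genic share without 1 library ranged from 67.4% to 79.2%, reversed without CPT20 replicate 1 (67.4% against 70.6%) and did not pass without CPT20 replicate 2 (69.7% against 68.4%).

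The GC difference did not pass at −log10 q of at least 3 (56.5%) or 10 (64.6%), at 50 bp pairing (54.5%), outside raised density (53.1%), with 1 kb windows (53.9%) or with sites at least 600 bp wide (54.3%, chosen later), and reversed with equal lists (58.4% against 51.6%) and against unreplicated sites of CPT20 replicate 2 (52.7% against 33.8%, chosen later). Of the 6 sequence patterns, after adjustment over the 6, 1 passed with 50% overlap, equal lists or no gap distance, 2 outside raised density, 3 with 1 kb windows, 2 and 4 against unreplicated sites of CPT20 replicates 1 and 2, and 0 to 1 with 1 library left out (1 without CPT10 replicate 1). Summit order moved to 65.1% and 73.8% at −log10 q of at least 10, to 57.0% and 59.1% at 600 bp, and to between 46.1% and 50.9% in replicate 1 and between 48.0% and 54.0% in replicate 2 with 1 library left out. The strand share of replicate 1 passed at 44.8% (50% overlap) and 44.0% (equal lists) and ranged from 47.4% to 50.8% with 1 library left out, reversed at 50.8% without CPT20 replicate 2. That of replicate 2 reversed to 46.9% (−log10 q of at least 10), 48.0% (50% overlap and equal lists) and 47.2% (50 bp pairing), and ranged from 49.6% to 50.6% with 1 library left out, reversed at 49.6% without CPT10 replicate 1 and 49.95% without CPT20 replicate 1. The causes were not tested. Repeat content was not run, as the reference carries no repeat marking. With 2 libraries per time, an exact permutation test over libraries cannot pass, and the low number of sites in CPT20 replicate 2 limits which sites can be replicated.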
